A study of Mus musculus with 17 samples.

Results

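Kit+ cells of the mouse aorta-gonad-mesonephros region (AGM) were compared after 2 h on stroma carrying Jag1 and after 2 h on stroma carrying Dll4. The comparison rests on 6 of the 17 arrays of the series, the 3 titled as Ckit positive cells on OP9-Jag1 (Kit+J) and the 3 titled as Ckit positive cells on OP9-Dll4 (Kit+D). All 19937 genes with a probe set of their own were tested. CD31+CD45-Ter119- cells were sorted from pooled E11.5 embryos and laid on OP9 cells, a mouse bone marrow stromal line that overexpressed either ligand, in medium with IL3, IL6, SCF, IGF-1, FGF, VEGF and erythropoietin. They were then harvested and sorted again into CD31+CD45-Kit+ and CD31+CD45-Kit- fractions, and the RNA, of which there was little, was amplified before hybridisation. The labels tie no mouse strain or genotype to these arrays, and the donor cells and medium were described alike for both stromas. The arrays were labelled as biological replicates, and the study's methods describe them as independent sorts. Fresh Kit+ cells, sorted without culture, gave 3 further arrays from an earlier series. Their levels are shown but not tested against the cultured cells, because the effect of culture cannot be told apart from that of the array set. The fresh arrays do enter the spread on which the tests rest. No array of Kit+ cells on OP9 stroma without an added ligand was analysed here, so the values give a difference between stromas and not an effect of either ligand alone.

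Notch receptors are cleaved when a ligand of the Jagged or Delta family on a neighbouring cell binds them, and the released intracellular domain activates genes such as those of the Hes and Hey families. In the AGM, blood stem and progenitor cells arise from endothelium of the dorsal aorta. Cells that enter this transition gain Kit, the receptor for stem cell factor, while they still carry endothelial proteins such as CD31. Dll4 is best known for its part in arterial endothelium, and Jag1 is required for definitive blood formation.

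The arrays were first set against their labels. Kit, in log2 units of the RMA signal, lay at 9.93, 9.02 and 9.30 on Kit+J replicates 1 to 3 and at 8.98, 8.51 and 8.99 on Kit+D replicates 1 to 3, a difference that did not pass the test (0.59, standard error 0.26, adjusted p = 0.235 from limma). Pecam1, which encodes CD31, lay at 9.92, 9.17 and 9.74 on Kit+J and at 7.60, 8.77 and 9.34 on Kit+D (adjusted p = 0.0988). CD45, the protein encoded by Ptprc, had been sorted against. The Ptprc transcript lay at 7.84, 7.38 and 8.61 on Kit+J and at 8.99, 5.54 and 4.64 on Kit+D. Array medians were 5.24 to 5.30 on Kit+D, so on Dll4 stroma only replicate 1 lay far above the median. Whether the transcript was above background was not tested. The endogenous probe sets of Jag1 (4.62 to 4.97 on Kit+J, 4.15 to 5.32 on Kit+D) and Dll4 (4.73 to 5.16 and 4.30 to 4.98) overlapped between the groups. Kit+D replicate 3 carries a description line that names Ckit- cells, against its title and source, which were used.

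The Kit+D arrays differed from each other in genes of other cell types, and the Kit+J arrays much less. On the Kit+J arrays the levels of 28 primordial germ cell markers averaged 8.15, 7.70 and 7.86, and on the Kit+D arrays 5.43, 7.80 and 8.42. For 32 macrophage and leukocyte markers the averages were 5.73, 5.84 and 6.17 in Kit+J against 8.09, 5.45 and 4.66 in Kit+D. Kit+D replicate 1 was thus low in germ cell genes and high in leukocyte genes, and its 23 inflammatory genes averaged 8.19 against 5.53 to 6.04 on the other 5 arrays. On Kit+D replicate 3 the mean of 27 stromal and mural markers was 5.99, against 4.89 to 5.51 on the other 5, with the chemokine Cxcl12 at 9.19. Of the germ cell, leukocyte and stromal markers 0 were called by limma, with 2, 0 and 1 at an unadjusted p under 0.05, against 19.1% of all genes. Of the inflammatory genes 1, Relb, was called. What part such cells had in the differences below was not tested beyond the fits without these arrays, and in bulk RNA fewer cells of a type and less RNA per cell cannot be told apart.

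**Figure D1:**
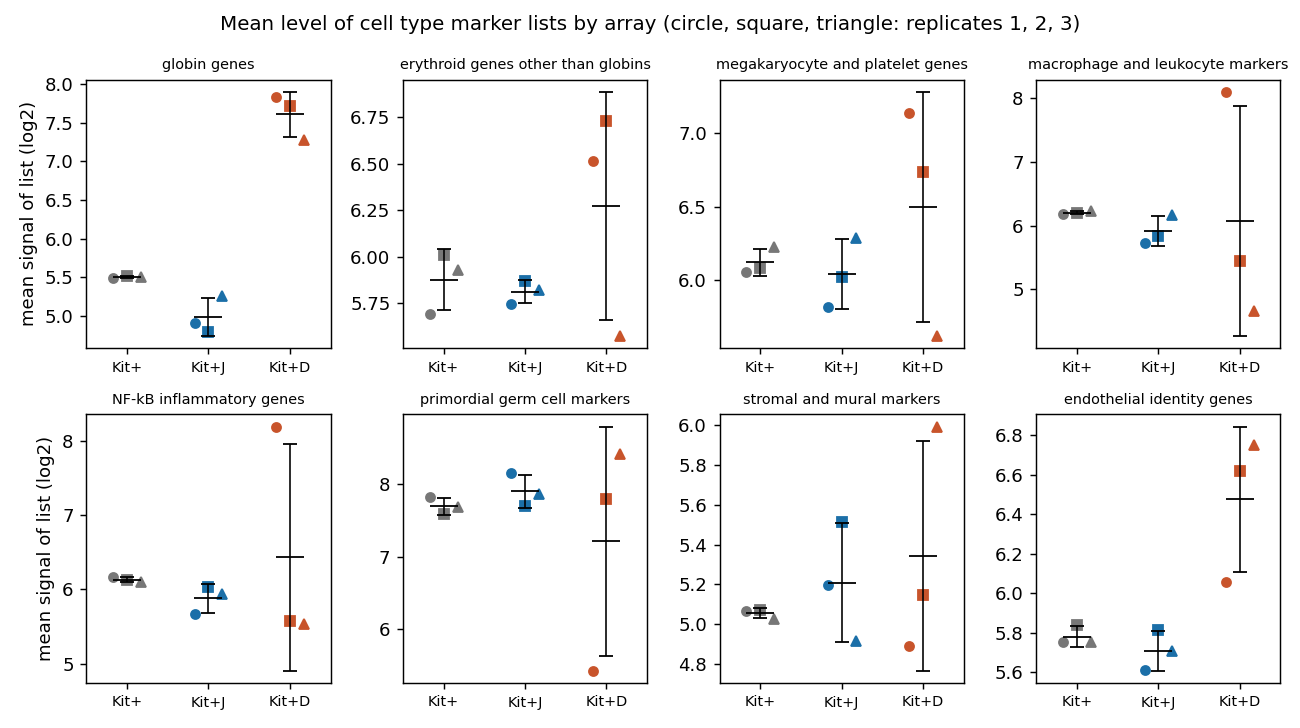
Mean log2 signal of 8 gene lists (y axis) on each fresh Kit+, Kit+J and Kit+D array (x axis); symbols are replicates, lines group means and bars SD. Germ cell markers drop to 5.43 and leukocyte markers rise to 8.09 on Kit+D replicate 1, while globin genes separate all Kit+D arrays (7.28 to 7.83) from the Kit+J arrays (4.79 to 5.26).

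In all, 449 of 19937 genes (2.25%) differed between Kit+J and Kit+D at an adjusted p under 0.05 from limma, 115 higher (0.577%) and 334 lower (1.68%) in Kit+J. The embryonic globins led the genes that were lower in Kit+J. Imprinted growth genes, replication-dependent histones, subunits of the respiratory chain, early response factors and some endothelial genes were also among them. The genes that were higher were fewer and their differences smaller, with a median of 0.77 (log2) against 1.01 for those that were lower. At an unadjusted p under 0.05 there were 3814 genes (19.1%), and the 3 Kit+J arrays did not overlap the 3 Kit+D arrays in 3403 genes (17.1%), with Kit+J above in 8.75% and below in 8.32%. Each of the 449 had arrays that did not overlap. The spread for these tests came from all 17 arrays, the fresh ones included. With cultured arrays only, 41 genes were called, and Grb10, Ldb2, Nrp1 and Ccnd1 were not among them (limma adjusted p from 0.0537 to 0.0949). With the 6 arrays alone 2 genes were called, Hbb-y and Hba-x. Without Kit+D replicates 1 and 3, which leaves a single Kit+D array, 343 genes were called, of which 137 were among the 449. Without Kit+D replicate 3 the count was 1243, and without Kit+D replicate 2 it was 113. Another quantile normalization changed the split to 252 higher and 206 lower.

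The median difference over all genes was 0.03. Of the 334 genes that were lower in Kit+J, 270 had a Kit+J mean nearer to the fresh Kit+ mean than the Kit+D mean was, as had 92 of the 115 that were higher. Over all genes Kit+J was nearer in 62.2%. Protein-coding genes that were lower were shorter, with a median gene length of 10.54 kb against 19.19 kb for all those tested and 20.52 kb for those that were higher.

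The embryonic globin genes Hbb-y and Hba-x had the largest differences, and their promoters are shown because both genes lay near the array median on OP9-Jag1 and far above it on OP9-Dll4. Hbb-y encodes a beta-type and Hba-x an alpha-type chain of the haemoglobin of primitive red cells, and they lie on separate chromosomes. The RefSeq windows run from 250 bases before to 50 after the start of each gene (GRCm38.p6), chr7:103853158-103853457 on the minus strand for Hbb-y and chr11:32276350-32276649 on the plus strand for Hba-x. Capitals mark matches on either strand to AGATAA or TGATAA, the letters that GATA factors bind, to CACCC, to CCAAT and to TATAAA.
Hbb-y: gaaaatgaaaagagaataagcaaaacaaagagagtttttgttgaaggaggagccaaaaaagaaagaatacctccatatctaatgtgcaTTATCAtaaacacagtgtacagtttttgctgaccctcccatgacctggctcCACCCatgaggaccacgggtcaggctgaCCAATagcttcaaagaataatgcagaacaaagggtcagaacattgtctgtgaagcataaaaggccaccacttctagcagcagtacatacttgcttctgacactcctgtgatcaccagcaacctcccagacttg
Hba-x: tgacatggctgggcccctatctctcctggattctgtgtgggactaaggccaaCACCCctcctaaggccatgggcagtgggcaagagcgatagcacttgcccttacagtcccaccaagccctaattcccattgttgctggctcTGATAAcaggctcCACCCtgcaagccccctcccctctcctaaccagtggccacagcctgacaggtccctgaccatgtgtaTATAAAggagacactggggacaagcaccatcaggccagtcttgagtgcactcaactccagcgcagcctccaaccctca
Each window holds 1 GATA match, at -162 in Hbb-y and at -108 in Hba-x, counted from the start of the gene. CACCC occurs at -111 in Hbb-y and at -198 and -95 in Hba-x, CCAAT at -83 in Hbb-y only, and TATAAA at -28 in Hba-x only. The matches do not overlap. Of 32851 promoter windows of 300 bases, 18.6% hold a GATA match, 57.5% CACCC, 37.4% CCAAT and 13.6% TATAAA, so the matches describe these windows and identify no bound factor.

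Hbb-y had signals of 5.77, 4.27 and 5.29 in Kit+J and of 11.39, 11.32 and 10.37 in Kit+D (5.11 ± 0.77 and 11.03 ± 0.57, SD, n = 3 each). On fresh Kit+ cells it lay at 6.76, 6.15 and 7.30. The difference was -5.91 (standard error 0.55, adjusted p = 0.000493 from limma), a 60.3-fold ratio of signals. Hba-x lay at 4.87, 5.58 and 5.79 on Kit+J, close to the fresh cells at 5.46, 5.76 and 5.45, and at 10.26, 10.42 and 9.21 on Kit+D. It differed by -4.55 (standard error 0.54, adjusted p = 0.00145), a 23.4-fold ratio of signals. Whether either gene was above background on Kit+J was not tested, so these ratios are not measured folds of RNA. Both genes were called without each of the 6 arrays in turn, under every other setting tried, and with Kit+D replicates 1 and 3 left out. Their gap was larger than the whole spread of either group.

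Of 11 globin genes listed, 5 had a probe set of their own, and the adult alpha and beta globins were not among them. Hbb-bh1, a further embryonic beta-type gene, lay at 4.75, 4.33 and 6.33 on Kit+J and at 8.79, 8.72 and 7.24 on Kit+D. These arrays do not overlap, but the difference of -3.11 missed the threshold (standard error 0.81, adjusted p = 0.0588). The adjusted p was 0.0302 without Kit+D replicate 3. The theta globin genes had overlapping arrays, Hbq1a differing by 0.35 (adjusted p = 0.377) and Hbq1b by 0.16 (adjusted p = 0.707). Of 24 erythroid genes other than globins, 0 were called by limma (median -0.45). An unadjusted p under 0.05 was found in 8, all of them lower, against 19.1% of all genes in either direction. In 2 the Kit+J arrays lay wholly below the Kit+D arrays, a share near the 8.32% of all genes. The list averaged 5.74, 5.87 and 5.82 in Kit+J against 6.51, 6.73 and 5.57 in Kit+D. The erythroid transcription factors Gata1 (-0.11, adjusted p = 0.891) and Klf1 (0.01, adjusted p = 0.988) had overlapping arrays. Rhag, a red cell membrane gene, lay at 3.12 to 3.54 on Kit+J and at 5.42, 6.90 and 3.52 on Kit+D (adjusted p = 0.0847). With Kit+D replicate 2 as the only Kit+D array, 6 of the 24 were lower. Outside the list, and chosen after their values were seen, the haem synthesis genes Alad (-1.33, standard error 0.27, adjusted p = 0.0216) and Ppox (-0.81, standard error 0.16, adjusted p = 0.0213) were lower in Kit+J. Alad missed the threshold in each fit that left out 1 of Kit+J replicates 1 and 2 and Kit+D replicates 1 and 2 (0.0516 to 0.0879), and Ppox without Kit+J replicate 1 or Kit+D replicate 2 (0.0582 to 0.0911).

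**Figure D2:**
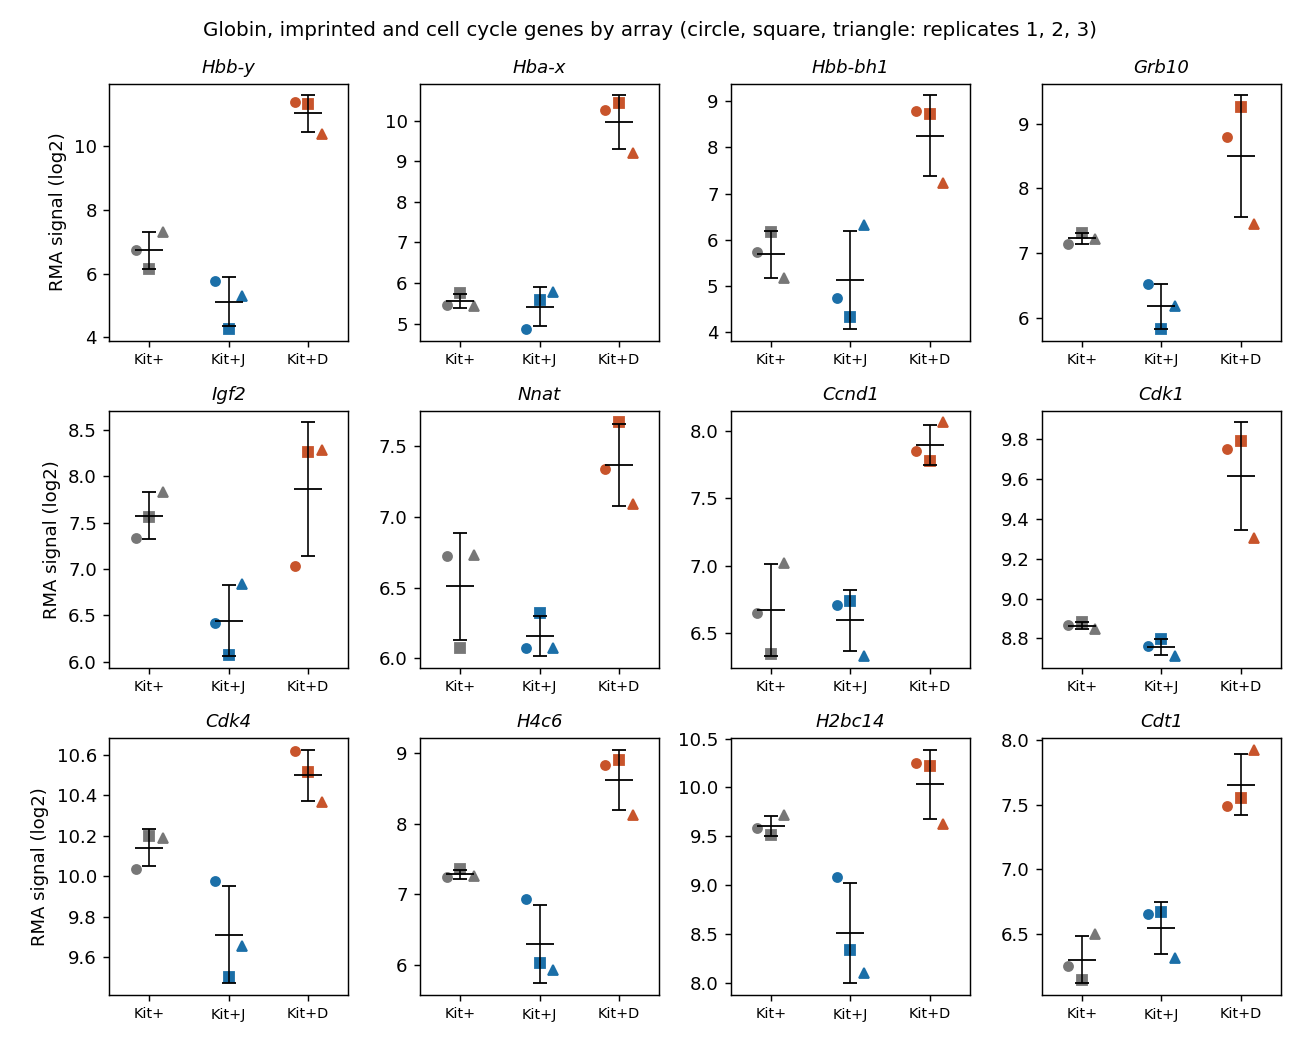
RMA signal in log2 units (y axis, scaled for each gene) of 12 genes on fresh Kit+, Kit+J and Kit+D arrays; symbols are replicates, lines group means and bars SD. Hbb-y lies between 4.27 and 5.77 on Kit+J and between 10.37 and 11.39 on Kit+D, and in each panel the Kit+J arrays lie below the Kit+D arrays.

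Of 21 imprinted growth genes tested, 3 were lower in Kit+J and 0 higher (14.3%, median -0.19). Grb10, an adaptor that restrains insulin and IGF receptor signalling, lay at 6.53, 5.83 and 6.18 on Kit+J and at 8.80, 9.25 and 7.44 on Kit+D. Fresh cells held 7.14, 7.31 and 7.22, between the cultured groups. The difference was -2.32 (standard error 0.34, adjusted p = 0.00487), a 5.0-fold higher signal on OP9-Dll4. Grb10 was called without each array in turn. The growth factor gene Igf2 lay at 6.42, 6.07 and 6.83 on Kit+J and at 7.03, 8.27 and 8.29 on Kit+D (-1.42, standard error 0.29, adjusted p = 0.0238). Igf2 missed the threshold without Kit+J replicates 1 or 2 or Kit+D replicate 2 (0.0541 to 0.0997). Nnat, an imprinted membrane proteolipid gene, differed by -1.21 (standard error 0.24, adjusted p = 0.0197). Its adjusted p was 0.0879 on leaving out Kit+D replicate 2 and 0.0553 on leaving out Kit+J replicate 3. Mest lay at 6.57 to 7.08 on Kit+J and at 6.93, 8.96 and 9.34 on Kit+D and was not called (adjusted p = 0.0568; 0.000483 without Kit+D replicate 1). Igf1r, the IGF receptor, differed by -0.70 (adjusted p = 0.0547).

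Among 23 cyclins, cyclin-dependent kinases and their inhibitors, 3 were lower and 0 higher (13.0%, median -0.26). Ccnd1, which encodes cyclin D1 and is listed among Notch target genes, lay at 6.71, 6.74 and 6.33 on Kit+J and at 7.85, 7.78 and 8.06 on Kit+D. The Kit+J arrays were level with fresh cells (6.65, 6.34 and 7.02). The difference was -1.30 (standard error 0.28, adjusted p = 0.0252), or 2.47-fold. Cdk1, the mitotic kinase, differed by -0.86 (standard error 0.18, adjusted p = 0.0264), and Cdk4, the partner of cyclin D1, by -0.79 (standard error 0.18, adjusted p = 0.0347). Cyclin D2 was not called (Ccnd2, -0.51, adjusted p = 0.379). The calls of Ccnd1, Cdk1 and Cdk4 were each lost in every fit that left out 1 of Kit+J replicates 2 and 3 and Kit+D replicates 1 and 2, with adjusted p from 0.0507 to 0.102, as was that of Cdk1 in the fit that left out Kit+J replicate 1. With Kit+D replicate 2 alone none of them was called. Of 30 genes of DNA replication and mitosis only the licensing factor gene Cdt1 was called (-1.11, standard error 0.20, adjusted p = 0.0148), and the list's median was 0.03.

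Replication-dependent histone genes, which are transcribed in S phase, were grouped after their values had been seen. Of 27 tested, 11 were lower in Kit+J and 0 higher (40.7%, median -0.70). H4c6 lay at 6.93, 6.03 and 5.92 on Kit+J and at 8.84, 8.90 and 8.13 on Kit+D, with 7.24, 7.36 and 7.26 on fresh cells. It differed by -2.33 (standard error 0.26, adjusted p = 0.00145). H2bc14 lay at 9.09, 8.34 and 8.11 on Kit+J and at 10.25, 10.22 and 9.62 on Kit+D (-1.52, standard error 0.23, adjusted p = 0.00582). The others called were H2ac4, H4c3, H4c4, H4c8, H4c9, H4c14, H2bc3, H2bc8 and H2bc22, with differences from -2.52 to -0.76. H4c6, H2bc14, H2bc3, H4c8 and H4c9 were called without each array in turn. The other 6 missed the threshold without at least 1 of Kit+J replicates 2 and 3 and Kit+D replicates 1 and 2 (adjusted p up to 0.143). Coding sequences of histone genes are nearly identical, so probes can share signal between copies and the members are not independent of each other. Of the 11, 6 had the Kit+J mean nearer to fresh cells.

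Genes of the respiratory chain and the ATP synthase, also grouped after their values had been seen, were lower in Kit+J in 9 of 82 cases and higher in 0 (11%, median -0.27). Atp5g1, a subunit of the ATP synthase ring, lay at 9.19, 9.27 and 9.12 on Kit+J and at 10.51, 10.84 and 10.31 on Kit+D (-1.36, standard error 0.18, adjusted p = 0.00251). Atp5l, another subunit, differed by -1.24 (standard error 0.16, adjusted p = 0.00251). On fresh cells these genes lay at 9.45 to 9.54 and at 9.72 to 9.90, closer to Kit+J. Complex I was represented by Ndufa3, Ndufa11, Ndufb7 and Ndufc1 and complex III by Uqcr11 and Uqcrc1, with differences from -1.33 to -0.76. Atp5g1 and Atp5l were called without each array in turn. The other 7, which include Atp5g2 (-0.51, adjusted p = 0.0403), missed the threshold without 1 or more of the 6 arrays, most often without Kit+D replicate 2 (7 of 7; adjusted p up to 0.147). Another quantile normalization left 6 of the 82 lower and 2 higher. RNA polymerase II subunits Polr2f (-1.20), Polr2h (-0.72) and Polr2l (-1.16) were lower too, 3 of 13 tested. Of these Polr2f was called without each array in turn, Polr2l was lost without Kit+D replicate 2 (0.0737), and Polr2h without Kit+J replicate 1 or Kit+D replicates 1 or 2 (0.0507 to 0.0789). Proteasome subunits showed 1 of 39 lower (2.56%), a share near the 2.25% of all genes called.

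Of 36 endothelial identity genes, 6 were lower in Kit+J and 0 higher (16.7%, median -0.67), and 13 had Kit+J arrays wholly below the Kit+D arrays against 8.32% of all genes. Tek, the angiopoietin receptor, lay at 4.72, 4.54 and 4.44 on Kit+J and at 5.86, 6.02 and 5.73 on Kit+D, with 5.20, 5.08 and 5.12 on fresh Kit+ cells. It differed by -1.30 (standard error 0.19, adjusted p = 0.00466). The transcription cofactor Ldb2 lay at 4.67, 5.32 and 4.30 on Kit+J and at 5.98, 7.21 and 7.45 on Kit+D (-2.12, standard error 0.33, adjusted p = 0.00815). The VEGF co-receptor Nrp1 lay at 5.19, 5.47 and 4.89 and at 6.33, 6.45 and 6.28 (-1.17, standard error 0.19, adjusted p = 0.0097). These 3 were called without each array in turn.

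Emcn, a sialomucin of veins and capillaries, had its lowest signals on Kit+J (4.19, 4.51 and 5.20), was similar on Kit+D replicate 1 (5.25) and reached 8.33 and 8.37 on the other Kit+D arrays (-2.68, standard error 0.63, adjusted p = 0.0397). Lyve1, a hyaluronan receptor of lymphatic endothelium that is also made by macrophages, was highest on Kit+D replicate 1, where it was at 8.0, and differed by -1.55 (adjusted p = 0.0488). Egfl7, a secreted endothelial factor, differed by -0.99 (adjusted p = 0.0296). Emcn was called without Kit+D replicate 1 only, Lyve1 without Kit+D replicate 3 only, and Egfl7 missed the threshold without Kit+J replicate 2 or Kit+D replicate 2 (adjusted p from 0.0568 to 0.15 over the fits that lost the call). Cdh5, which encodes VE-cadherin, lay at 4.68, 6.33 and 6.17 on Kit+J and, as Emcn did, was lower on Kit+D replicate 1 (5.93) than on the other Kit+D arrays (8.33 and 8.58), and was not called (adjusted p = 0.0876; 0.00487 without Kit+D replicate 1). Kdr, the main VEGF receptor (-1.30, adjusted p = 0.0583), and the apelin receptor Aplnr (-1.68, adjusted p = 0.0511) were not called either. The mean level of the list was 5.61 to 5.81 on Kit+J and 6.06 to 6.75 on Kit+D.

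Of 31 immediate early and dissociation genes, 3 were lower and 0 higher (9.68%, median -0.46). Jun, a subunit of AP-1, lay at 8.15, 7.57 and 8.05 on Kit+J and at 9.22, 9.12 and 9.10 on Kit+D. Here the Kit+D arrays were level with fresh cells (9.15, 9.53 and 9.27). Jun differed by -1.22 (standard error 0.16, adjusted p = 0.00327), and the small GTPase gene Rhob by -1.23 (standard error 0.16, adjusted p = 0.00251). Both were called without each array in turn. Egr2, a zinc finger factor, lay at 8.29, 8.12 and 7.61 on Kit+J and at 8.66, 9.12 and 9.30 on Kit+D (-1.02, standard error 0.20, adjusted p = 0.0194; 0.0566 to 0.074 without Kit+J replicate 3 or Kit+D replicate 2). Fos (-0.61, adjusted p = 0.104) and Nr4a1 (-0.92, adjusted p = 0.0738) were not called. The list's median was -0.31 after another quantile normalization.

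**Figure D3:**
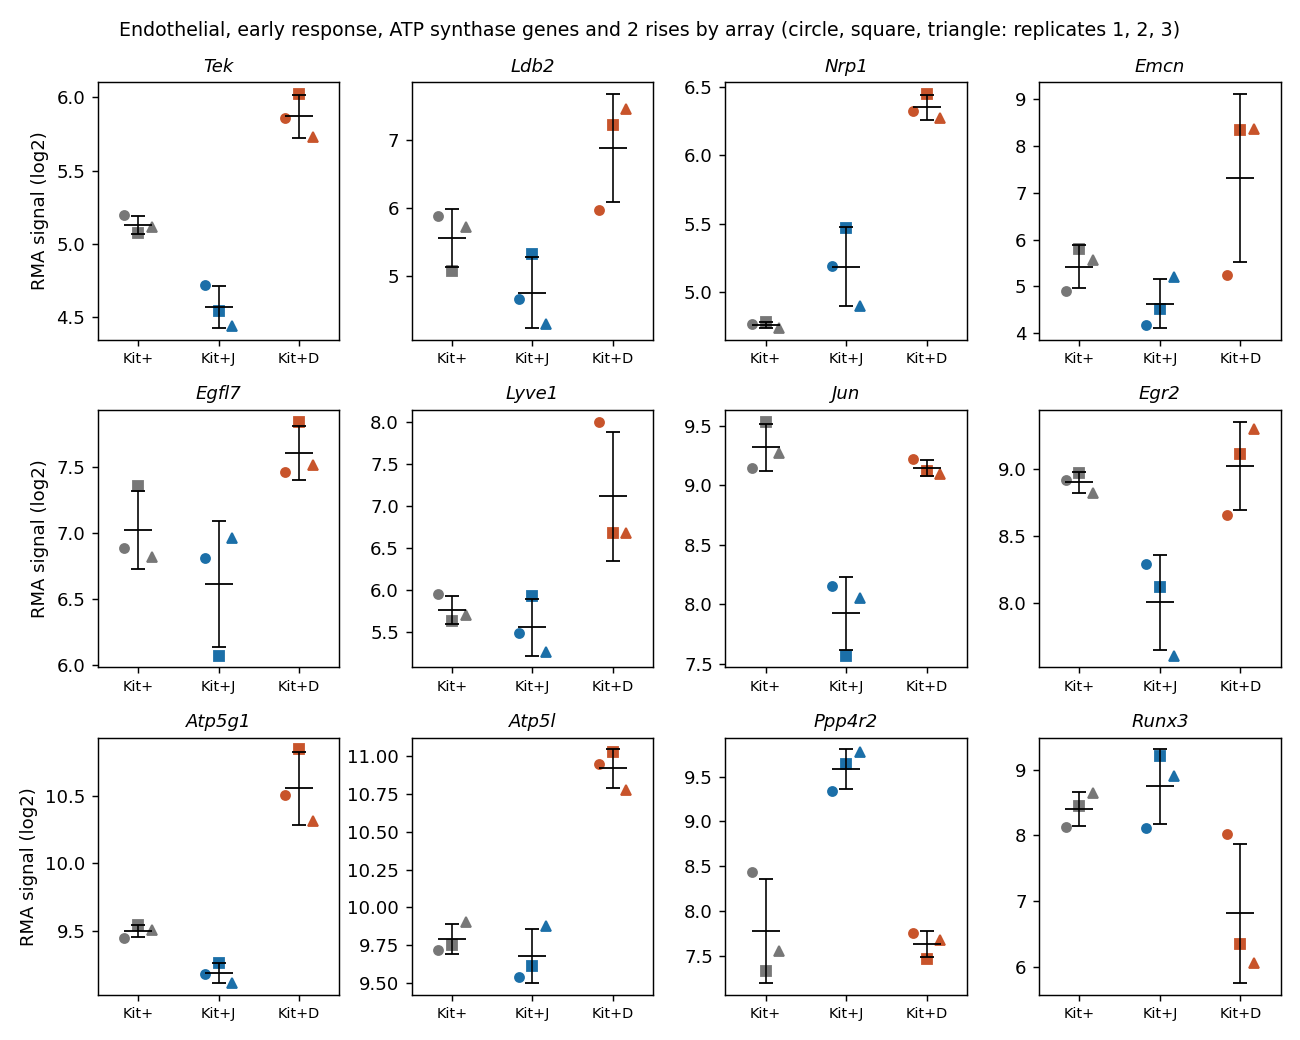
RMA signal in log2 units (y axis, scaled for each gene) of 12 genes on fresh Kit+, Kit+J and Kit+D arrays; symbols are replicates, lines group means and bars SD. Tek lies at 4.44 to 4.72 on Kit+J and at 5.73 to 6.02 on Kit+D, Jun at 7.57 to 8.15 and at 9.10 to 9.22, and Ppp4r2 at 9.34 to 9.77 and at 7.46 to 7.76.

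None of the 12 Notch ligands and receptors was called by limma (median -0.01). All 12 had overlapping arrays, and 1, Notch2, had an unadjusted p under 0.05. Notch1 lay at 7.60, 7.04 and 7.45 on Kit+J and at 7.26, 7.18 and 7.36 on Kit+D (0.10, standard error 0.23, adjusted p = 0.853). Notch2 lay at 6.16, 6.08 and 6.28 and at 7.41, 7.11 and 6.23 (-0.74, standard error 0.22, adjusted p = 0.0876; 0.0016 without Kit+D replicate 3). The others, Notch3, Notch4, Jag1, Jag2, Dll1, Dll3, Dll4, Dlk1, Dlk2 and Dner, differed by -0.27 to 0.40. Of 20 Notch target genes, 1, Ccnd1, was called (5.0%, median -0.08). Hes1 lay at 6.77, 6.65 and 6.76 on Kit+J and at 6.93, 7.01 and 7.94 on Kit+D (-0.57, standard error 0.32, adjusted p = 0.349). Hey1 lay at 8.70, 7.87 and 7.95 on Kit+J and spread from 5.96 to 9.23 on Kit+D (adjusted p = 0.758). Heyl, Nrarp, Dtx1, Efnb2 and Myc differed by -0.80 to 0.51 and were not called. Of 26 Notch modulators, such as fringes and proteases, 0 were called by limma, and 7 had an unadjusted p under 0.05, against 19.1% of all genes.

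Genes of protection against oxidants, glycolysis and other pathways were called singly. Gpx4, which reduces lipid peroxides, lay at 9.66, 9.43 and 9.16 on Kit+J and at 10.58, 10.74 and 10.63 on Kit+D (-1.24, standard error 0.15, adjusted p = 0.00145), and was called without each array in turn. The peroxiredoxin gene Prdx1 (-0.71, adjusted p = 0.0474), the glycolytic enzyme gene Aldoa (-0.91, adjusted p = 0.0244) and the sterol isomerase gene Ebp (-1.15, adjusted p = 0.03) were lower. So were Sgk1, a glucocorticoid-induced kinase (-1.03, adjusted p = 0.0397), the NF-kB subunit gene Relb (-0.79, adjusted p = 0.0171), the actin-associated genes Pdlim7 (-0.90, adjusted p = 0.0194) and Cnn2 (-1.18, adjusted p = 0.0314), the Wnt effector gene Tcf7l2 (-0.91, adjusted p = 0.0377) and Nhp2, a protein of small nucleolar particles (-0.85, adjusted p = 0.0377). Egln3, a prolyl hydroxylase of the oxygen response, was higher (1.36, standard error 0.30, adjusted p = 0.0296), as was the nuclear receptor gene Nr5a1 (0.84, adjusted p = 0.0342). The mean signal of Nr5a1 lay below the median of all probe sets. Each gene of this paragraph but Gpx4 missed the threshold without Kit+D replicate 2. Relb did so without that array only (0.0528), and the others also without 2 to 4 further arrays (adjusted p up to 0.134).

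**Figure D4:**
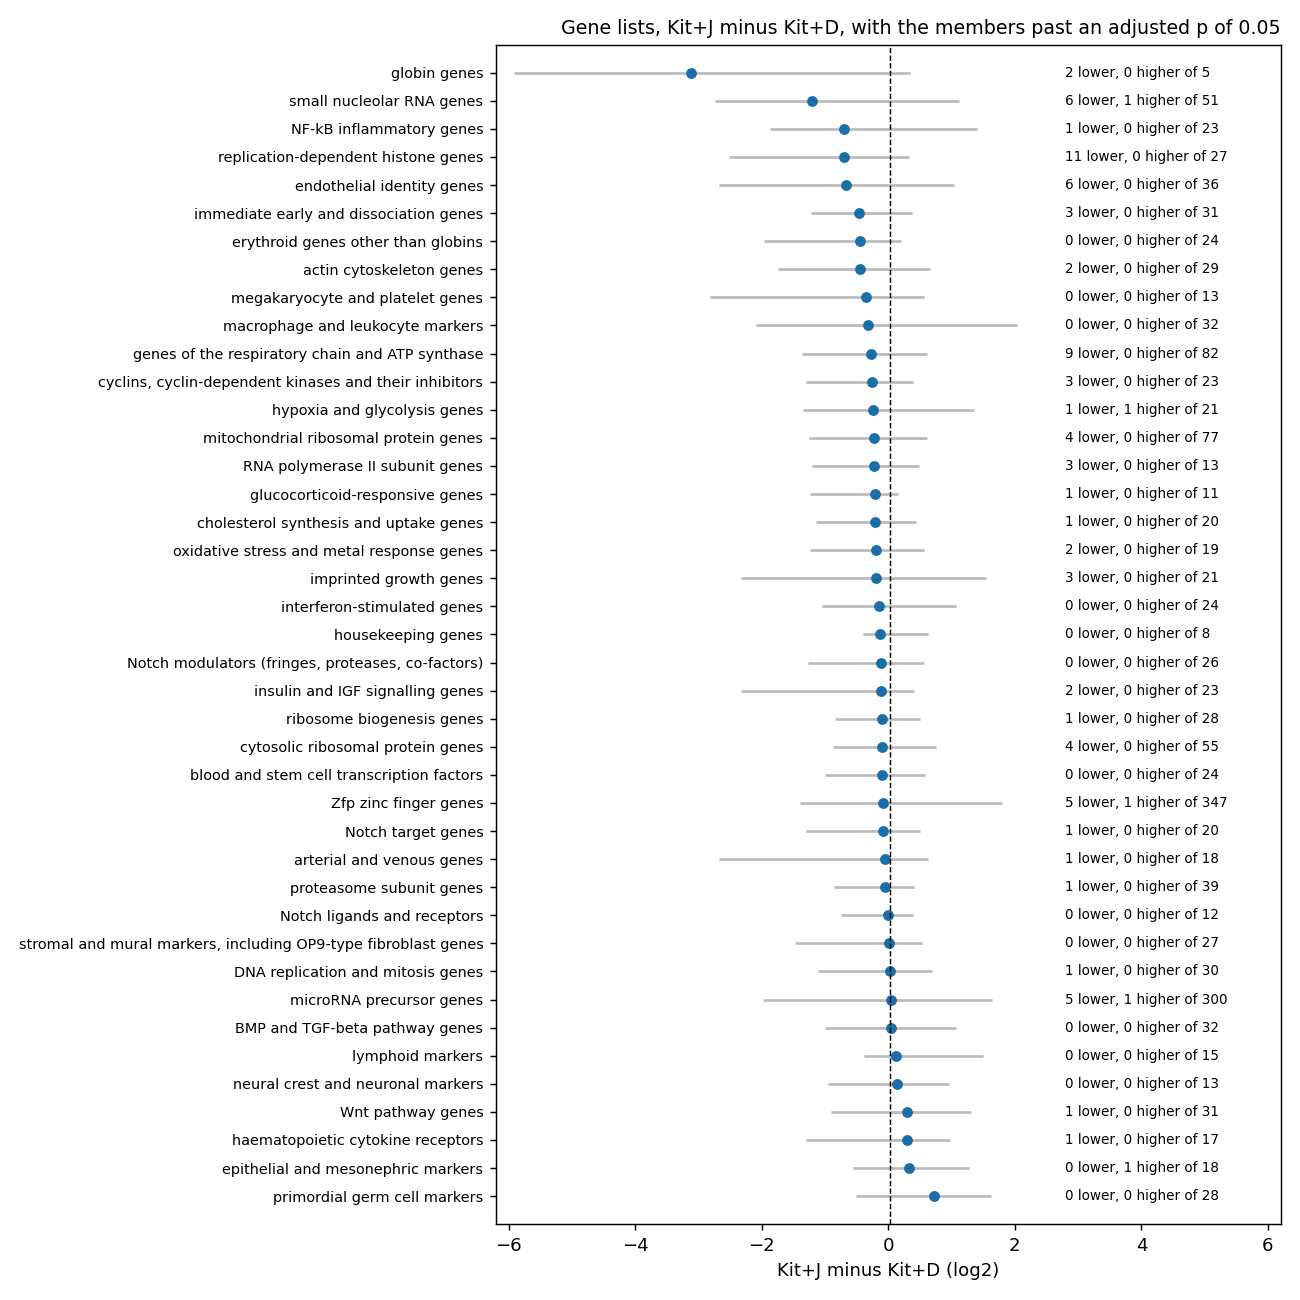
Kit+J minus Kit+D in log2 units (x axis) for 41 gene lists (y axis); points are list medians, lines run from the lowest to the highest member, and the dashed line is the median of all genes (0.03). Globins have the lowest median (-3.12), 11 of 27 histone genes are lower and 0 higher, and germ cell markers have the highest median (0.72) with 0 called.

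Among the 20 called genes with the largest rises, Ppp4r2, a regulatory subunit of protein phosphatase 4, lay at 9.34, 9.63 and 9.77 on Kit+J and at 7.76, 7.46 and 7.67 on Kit+D (1.95, standard error 0.39, adjusted p = 0.0206). Fresh cells held 8.43, 7.34 and 7.55, nearer to Kit+D. Runx3, a transcription factor of blood cells, lay at 8.12, 9.22 and 8.91 on Kit+J and at 8.03, 6.34 and 6.06 on Kit+D (1.94, standard error 0.44, adjusted p = 0.0365), so that Kit+D replicate 1 nearly reached the Kit+J arrays. Cdo1, the cysteine dioxygenase gene, lay at 7.23, 8.01 and 7.98 and at 5.16, 5.52 and 6.82 (1.91, standard error 0.40, adjusted p = 0.0244). Zfp750, a zinc finger factor of epidermal differentiation, lay at 7.48, 7.15 and 7.56 and at 5.05, 5.82 and 5.92 (1.80, standard error 0.26, adjusted p = 0.00466). The splicing factor gene Rbm25 was abundant in all samples, at 11.59, 11.46 and 11.98 on Kit+J and at 10.49, 10.08 and 10.92 on Kit+D (1.18, standard error 0.19, adjusted p = 0.0097).

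The other rises ran from 1.10 to 1.61 and held Gpatch8, Zbtb10, Spa17, Ddias, Adam34l, Sirt4, Usp6nl, Marchf5, Znrf3, Ccdc66, Znhit6, Tns1, Eef1e1, the provisional gene Gm4971 and Egln3. Zfp750, Ccdc66, Rbm25, Usp6nl, Adam34l and Znhit6 were called without each array in turn. Of these, Adam34l was dim, with a mean signal below the median of all probe sets. The other 14 of the 20 missed the threshold without at least 1 array, 12 of them on leaving out Kit+D replicate 2, 11 on leaving out Kit+J replicate 3, 8 and 7 on leaving out Kit+J replicate 2 and Kit+D replicate 1, 6 on leaving out Kit+J replicate 1 and 1, Runx3, on leaving out Kit+D replicate 3 (adjusted p from 0.0504 to 0.132). Among the 20 largest falls of called genes, of those not yet given, Tnfaip2, an inflammation-induced gene, and the endocytic adaptor Dab2 were highest on Kit+D replicate 1, at 8.25 and 9.39, against 6.18 to 6.78 on the other Kit+D arrays. Tmem255a was lowest there, at 5.82 against 8.15 and 8.33. Tcim, Ap1s1, Arl2bp and Mgst3 were lower by 1.97 to 2.54. Dab2 differed by -1.07 with the mean of its probe sets and was then not called (adjusted p = 0.0687 from limma). Of the 20 falls 8 were called without each array in turn, and the other 12 were lost in at least 1 such fit, 10 each without Kit+D replicate 2 and Kit+J replicate 2 (adjusted p from 0.0542 to 0.15).

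Small RNAs were called as well, although array probe sets read their precursors or host transcripts and not the mature RNA alone. Of 51 small nucleolar RNA genes 6 were lower and 1, Snord55, higher (13.7%, median -1.21). Snora3, which guides modification of ribosomal RNA, lay at 9.38, 7.80 and 7.36 on Kit+J and at 10.94, 11.07 and 10.73 on Kit+D (-2.74, standard error 0.40, adjusted p = 0.00487). Snora3, Snord16a and Snord55 were called without each array in turn. Snord52, Snora7a, Snora73b and Snord42a each missed the threshold when either Kit+D replicate 2 or Kit+J replicate 2 was left out and, Snord52 apart, without 1 or 2 further arrays (adjusted p from 0.0507 to 0.142). With Kit+D replicate 2 as the only Kit+D array 1 of the 51 was called. Of 300 microRNA genes 5 were lower and 1 higher (2.0%), a share near that of all genes. Mir302b and Mir302d, members of a cluster known from pluripotent cells, were lower in Kit+J, and their mature 3p sequences (RefSeq, GRCm38.p6, chromosome 3) are shown because they share a seed, bases 2 to 8, in capitals.
miR-302b-3p: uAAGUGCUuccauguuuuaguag
miR-302d-3p: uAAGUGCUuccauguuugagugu
Mir302b lay at 2.07, 2.19 and 2.21 on Kit+J and at 3.17, 3.36 and 4.44 on Kit+D (-1.50, standard error 0.32, adjusted p = 0.0245), and Mir302d at 3.13, 3.50 and 3.42 and at 4.09, 4.46 and 4.70 (-1.06, standard error 0.20, adjusted p = 0.0191). These levels lie near the floor of the array, so that the sizes are uncertain. Mir302b missed the threshold without any Kit+J array or Kit+D replicate 2, and Mir302d without Kit+J replicate 1 or Kit+D replicate 2 (0.051 to 0.0695).

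The same ligand difference in the Kit- fraction of these cultures was set beside these values, Kit-J having 2 arrays and Kit-D 3. Kit lay at 9.08 and 8.50 on Kit-J, close to the Kit+D levels given above, and at 7.05 to 8.02 on Kit-D. Endothelial genes averaged 6.31 and 6.62 on Kit-J and 8.44 to 8.94 on Kit-D. Germ cell markers averaged 7.54 and 7.26 on Kit-J and 5.1 to 5.99 on Kit-D. What part the cell makeup of these arrays had in the Kit- differences was not tested. Of the 334 genes that were lower in Kit+J, 238 (71.3%) had a lower average in Kit-J than Kit-D as well, against 52.5% of all genes with a Kit+ difference below 0. Of the 115 that were higher, 86 (74.8%) were above 0 in Kit- cells, against 71.1% of all genes with a Kit+ difference above 0, a share near that background. The difference between the fractions was itself called in 395 genes (1.98%), and in 67 of the 334 and 12 of the 115. It contains the Kit+ difference by which the 334 and 115 were picked. A share above 1.98% among them is therefore built in and is not read as a result. For Hbb-y the Kit- difference was -3.15 and for Hba-x -3.19. The difference between fractions was called for neither gene (adjusted p = 0.104 and 0.427 from limma). With 2 Kit-J arrays this does not show that the fractions were alike. Grb10 (-1.99), Igf2 (-1.46), Jun (-1.16) and Runx3 (2.11) also had Kit- differences in the same direction, with adjusted p from 0.805 to 0.977 for the difference between fractions. Ccnd1 differed by -2.59 in Kit- cells (adjusted p = 0.131 between fractions).

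Tek differed by -3.25 in Kit- cells and by -1.30 in Kit+ cells, and the fractions differed (1.95, standard error 0.28, adjusted p = 0.00617). Its level was 5.75 and 6.19 on Kit-J and 8.87 to 9.49 on Kit-D, against at most 6.02 on the Kit+ arrays. Cdt1 differed in the other direction in Kit- cells (0.39; -1.50 between fractions, standard error 0.30, adjusted p = 0.0227), as did Atp5g1 (0.72; -2.08 between fractions, standard error 0.26, adjusted p = 0.00283). Atp5g1 lay at 9.63 and 9.19 on Kit-J and at 8.59, 8.68 and 8.81 on Kit-D. Ppp4r2, the largest rise among the called genes, was lower by 0.60 on average in Kit-J (2.55 between fractions, standard error 0.59, adjusted p = 0.0408).

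**Figure D5:**
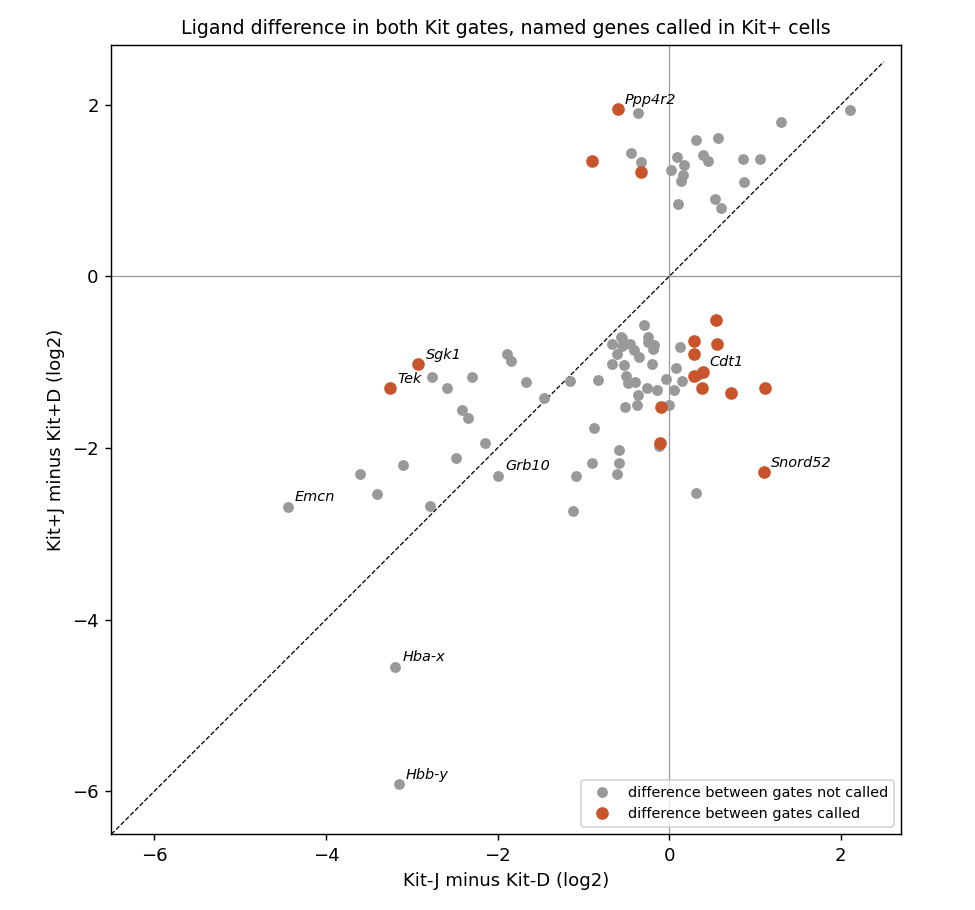
Kit+J minus Kit+D (y axis) against Kit-J minus Kit-D (x axis), both in log2 units, for the named genes called in Kit+ cells; the dashed line marks equal differences and red points are genes whose difference between the Kit fractions was itself called. Hbb-y lies at -3.15 and -5.91, Tek at -3.25 and -1.30, and Snord52 at 1.10 and -2.28.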

How the data were processed

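RNA was hybridised to Affymetrix Mouse Gene arrays. Per the labels, the authors deposited log2 values summarised with RMA, whose version is not given in the sources used here; RMA equalises array distributions, so a change in total RNA cannot be seen. All 17 columns were mapped by title, and 0 were left unused. Array medians were 5.22 to 5.34 for Kit+J and 5.24 to 5.30 for Kit+D, and no 2 of these 6 arrays shared more than 0.952% of their values.

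Of 34760 probe sets 21640 carried 1 symbol, 1321 several and 11799 none. The brightest probe set was taken for 954 genes with several, leaving 19937 genes, of which 19854 matched RefSeq (GRCm38.p6) by Entrez number. Kit+J and Kit+D were compared by fitting 1 mean for each of the 6 groups to all 17 arrays with limma 3.58.1 under R 4.3.3, with Benjamini-Hochberg adjustment over all genes and a threshold of 0.05. The number of arrays limits the precision.

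Members, lists and alternatives were chosen with earlier results of these data known. Named genes are the called genes with non-overlapping arrays and the 20 largest differences in each direction, Ccnd1, Hbb-y, Grb10, Kit, Notch receptors and ligands, and up to 4 members of a list by smallest p; others were named after their values were seen. On simulated data for Kit+J against Kit+D with 19937 genes, 67 of 100 genes changed by 1 and 92 of 100 changed by 2 (log2) were called, with 7 unchanged genes called. The simulated noise was independent between genes, with 1 spread a gene for all groups. The real Kit+D arrays differed in whole sets of genes, so these counts do not give the error rates of the real comparison. Python 3.11.15 and matplotlib 3.10.9 made the plots.

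Alternatives were fits of only the groups compared or of cultured arrays, other scalings (by housekeeping genes, by quantiles again), array weights or a variance trend, other choices of probe sets (dim ones dropped, means, all kept), a fold threshold, the replicate number as a fixed or random block, and the omission of single arrays. A fit without Kit+D replicates 1 and 3 was added after seeing the data; the array left is assumed to vary like the other groups.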

Additional observations from a re-analysis of the deposited data

Results flagged for a closer look

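The ligand difference in Kit+ cells (Kit+J minus Kit+D) was set against that in Kit- cells (Kit-J minus Kit-D), and 20 of the genes examined differed between the fractions at an adjusted p under 0.05 from limma. Values are the Kit+ difference minus the Kit- difference in log2 units. Kit-J has 2 arrays, and the number of genes called over the whole table depends strongly on which of them is kept. As given above, the Kit-J arrays also differed from Kit-D in Kit and in germ cell and endothelial genes. The endothelial receptor genes Kdr, at 2.97 (standard error 0.51, adjusted p = 0.0121), and Tek, at 1.95 (0.28, adjusted p = 0.00617), had differences nearer to 0 in Kit+ cells. Tek lay much lower on the Kit+J and Kit+D arrays than on the Kit-D arrays, as given above. Whether its low level limited the Kit+ difference was not tested. Pecam1, at 2.04 (0.48, adjusted p = 0.0433), had differences of opposite sign, 1.04 in Kit+ cells and -1.0 in Kit- cells. Kdr and Pecam1 were not called within Kit+ cells. Genes for ATP synthase subunits were more negative in Kit+ cells, Atp5g1 at -2.08 (0.26, adjusted p = 0.00283) and Atp5g2 at -1.055 (0.18, adjusted p = 0.0121), as were the glycolytic gene Aldoa at -1.19 (adjusted p = 0.0472), the mitochondrial ribosomal gene Mrps12 at -1.35 (adjusted p = 0.0294) and the RNA polymerase II gene Polr2l at -1.455 (adjusted p = 0.0378). The same held for the histone genes H2bc14 at -1.43 (adjusted p = 0.048) and H2bc22 at -1.04 (adjusted p = 0.0294), and for the licensing factor gene Cdt1 at -1.50 (adjusted p = 0.0227). Among small RNA genes, Snord52 stood at -3.38 (0.67, adjusted p = 0.0228), Snora73b at -2.41 (adjusted p = 0.018), Mir465 at -1.84 (adjusted p = 0.0329) and Mir692-1 at -1.68 (adjusted p = 0.00432). Positive values were found for Ppp4r2 at 2.55 (0.59, adjusted p = 0.0408), Usp6nl at 2.24 (0.33, adjusted p = 0.00648), the kinase gene Sgk1 at 1.895 (adjusted p = 0.0199), the transcription factor gene Isl1 at 1.67 (adjusted p = 0.0396) and Znhit6 at 1.545 (adjusted p = 0.029). Isl1 and Mir465 were dim, with mean signals below the median of all probe sets.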

How the results depend on the processing

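For Kit+J minus Kit+D, over the genes examined and all alternatives, 1990 values kept direction and side of the threshold, 641 missed it, 47 newly passed it and 24 changed sign. For the difference between fractions, over the examined genes in which it was called, 310 values kept direction and side of the threshold and 168 missed it. From 449 called genes, the count became 2 with the 6 arrays alone, 41 with cultured arrays only, 202 with housekeeping scaling, 196 with a fold threshold, 172 under a fixed replicate block, 1024 when every probe set was kept, and 113 (without Kit+D replicate 2) to 1243 (without Kit+D replicate 3) with single arrays left out. For the difference between fractions, 395 became 44 with only the groups compared or cultured arrays only, 88 with housekeeping scaling, 161 with array weights, 126 with a fixed replicate block and 91 (without Kit-J replicate 1) to 811 (without Kit-J replicate 2). The cause was not tested. Another quantile normalization gave 252 higher and 206 lower genes, with the median of all genes at 0.09. The replicate numbers did not pair Kit+J with Kit+D arrays (correlations of same-numbered deviations from -0.201 to -0.089). Of the 172 genes under the block, 156 were among the 449. Whether the numbers pair the Kit+ with the Kit- fraction was not tested, and the main fit took all arrays as independent. Leukocyte markers averaged 8.09, 5.45 and 4.66 over Kit+D replicates 1 to 3. Same-numbered Kit-D arrays gave 7.03, 4.95 and 4.80, the same order. Globin genes did not share an order (7.83, 7.71 and 7.28 against 7.81, 8.30 and 6.56). All sign changes were in genes not called. After another quantile normalization Notch4 was at 0.0093 and Dlk2 at 0.11. Klf1 was at -0.22 with array weights. Without Kit+D replicates 1 and 3, Dlk2 was at 0.067, Klf1 at -0.58, Hey1 at -0.050 and Heyl at 0.012. With single arrays left out, ranges that cross 0 were -0.024 to 0.26 for Notch1, -0.074 to 0.33 for Notch3, -0.2 to 0.053 for Notch4, -0.25 to 0.33 for Jag1, -0.80 to 0.050 for Dlk1, -0.22 to 0.083 for Dlk2, -0.0071 to 0.24 for Dner, -0.56 to 0.13 for Gata1, -0.47 to 0.31 for Klf1 and -0.55 to 1.08 for Hey1.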
